A study of Homo sapiens with 6 samples.

Results

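Aminoacyl-tRNA synthetases were followed in HCT116 cells, a human colorectal carcinoma line, after knockdown of the long noncoding RNA GMDS-AS1. The 35 genes were taken by symbol and not by their values: 19 code for the cytosolic enzymes, and 16, whose symbols end in 2, code for the mitochondrial ones. GARS1 and KARS1 serve both compartments from 1 gene and were counted as cytosolic. A value was given for all 35 among 60662 genes, and all 35 were among the 16901 genes expressed highly enough to be tested.

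Poly-A RNA was sequenced from cells carrying a control short hairpin RNA (shCtrl, genotype labelled WT) and from cells carrying GMDS-AS1 shRNA2 (GMDS-AS1 KD), with 3 libraries labelled as biological replicates in each group. Both groups were HCT116 cells stably transduced with lentivirus from the pLKO.1 puro vector and grown in McCoy's 5a medium with 10% serum, so a single hairpin stands for the knockdown. The labels do not say whether the replicates came from separate transductions, and p-values therefore measure the spread between these libraries. The sequence that shRNA2 was designed against is shown because it defines the treated group, and the whole 21-base target is in capitals.
GMDS-AS1 shRNA2 target: AAGACCACAGATAGATGGTAA

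Each aminoacyl-tRNA synthetase joins an amino acid to its matching transfer RNA, the step at which the genetic code is read into protein. The cytosol and the mitochondrion use largely separate sets of these enzymes, all coded in the nucleus, and several cytosolic ones are bound together in the multisynthetase complex. Many cytosolic synthetase genes, like the asparagine synthetase gene ASNS, are known targets of ATF4, the transcription factor of the integrated stress response, which binds composite C/EBP-ATF elements.

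GMDS-AS1, listed under the symbol GMDS-DT, had 1.66, 2.21 and 1.34 TPM (transcript abundance per length, scaled to a fixed total per library) under shCtrl against 0.88, 0.91 and 0.79 TPM under KD. The groups did not overlap, and the log2 fold change of -0.41 (SE 0.14) passed the threshold with an adjusted p of 0.0412. At these low levels the call was lost without any of the 6 libraries but shCtrl replicate 3, with adjusted p from 0.0294 to 0.118. Between 26061 and 26402 genes had a value above 0 in the shCtrl libraries, against 24381 to 24814 in the KD libraries. Epithelial markers were present in every library, with a summed level of 9163 to 9612 TPM in shCtrl and 3434 to 3542 TPM in KD, and KRT8, KRT18 and KRT19 were the 3 of 5 that fell. The leukocyte marker PTPRC was listed at 0 in all 6 libraries. Summed leukocyte markers were at 6.40 to 8.30 TPM in shCtrl and 6.52 to 8.16 TPM in KD, fibroblast markers at 12.8 to 14.6 and 10.04 to 10.96 TPM, and endothelial markers at 0.48 to 0.94 and 0.01 to 0.39 TPM. CD68 (6.35 to 8.21 TPM) made up nearly all of the leukocyte sum, and COL1A1 (10.04 to 14.42 TPM) nearly all of the fibroblast sum. CD3E stayed at or below 0.09 TPM, and COL1A2 and DCN at or below 0.16 TPM. COL1A1 passed as lower before scaling (log2 fold change -0.34, adjusted p = 0.0044) but not after it (-0.11, adjusted p = 0.215). The part of these differences in the results below was not tested, and in bulk RNA fewer cells of a type and less RNA per cell cannot be told apart.

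Synthetase mRNAs moved in both directions in GMDS-AS1 KD cells in both sets. Of the 19 cytosolic genes, 9 fell, 7 rose and 3 did not pass an adjusted p of 0.05. Of the 16 mitochondrial genes, 4 fell, 5 rose and 7 did not pass. Over all genes tested, 25.8% were lower in KD and 28.7% were higher. WARS1, IARS2, AARS1 and GARS1 fell most, while VARS1, FARSA, KARS1 and LARS2 rose most, and VARS1 was the single member past 2-fold after scaling (its log2 fold change was 0.79 in the deposited TPM). At 2-fold or more, 4.21% of all genes were lower and 2.96% higher. Fold changes are on the log2(TPM + 1) scale after scaling between libraries, KD minus shCtrl.

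As shares, the cytosolic genes were called lower in 47.4% and higher in 36.8%, and the mitochondrial genes lower in 25.0% and higher in 31.2%, so the mitochondrial shares lay near those of all genes. Calls were more frequent among highly expressed genes. Among the 2348 genes whose shCtrl mean lay in the range of the cytosolic synthetases, from 42.0 to 248 TPM, 24.5% were lower and 53.4% were higher. Cytosolic synthetases thus held a larger share of lower genes and a smaller share of higher genes than genes at their level, a description without a test, added after the values were seen. Among the 7746 genes in the range of the mitochondrial synthetases, from 6.37 to 56.1 TPM, 29.3% were lower and 34.5% were higher, likewise a description.

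The choice of scaling moves such counts. With the TPM as deposited the median log2 fold change over all genes tested was -0.20, where it was 0.00 after scaling, and changes are reported relative to the latter. Without scaling, 10 cytosolic genes were lower and 6 higher, and 6 mitochondrial genes were lower and 3 higher, beside 40.3% of all genes lower and 16.3% higher. In total, 22 of the 25 calls kept their side under each of the 4 scalings. FARSB, TARS2 and YARS2 did not, and YARS1, not past the threshold after scaling at 0.01, was lower at -0.24 in the deposited TPM (adjusted p = 0.00088).

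Levels were compared between genes on the TPM scale, which is per transcript length. In shCtrl cells the cytosolic means ran from 42.0 TPM for FARSB to 248 TPM for MARS1, with a median of 125 TPM. The upper 3, MARS1, QARS1 and SARS1, overlapped in their library values and could not be ranked. The mitochondrial means ran from 6.37 TPM for AARS2 to 56.1 TPM for IARS2, with a median of 14.3 TPM. In KD cells the order changed at the top of both sets. QARS1, at 285 TPM, stood alone above KARS1 at 196 TPM, and IARS2 dropped to 30.6 TPM, below CARS2 at 37.9 TPM. In the deposited TPM, 13 cytosolic synthetases exceeded 100 TPM in every shCtrl library, and 10 did in every KD library. This count depends on the scaling. After scaling, CARS1 lay below 100 in every shCtrl library (94.6 to 96.8), and AARS1 lay above 100 in every KD library (104 to 107).

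Among the cytosolic genes that fell, WARS1, which codes for the tryptophanyl enzyme and is also known as an interferon-inducible gene, measured 154, 147 and 149 TPM under shCtrl against 83.1, 71.7 and 79.4 TPM under KD. Every KD library lay far below every shCtrl library. The log2 fold change was -0.69 (SE 0.05, adjusted p = 4.4e-05), and the gene lies at chr14:100333788-100376805 (whole gene with introns, GENCODE v29 on GRCh38, as for the other gene positions). AARS1, the alanyl enzyme at chr16:70252295-70289543, went from 168 ± 4.4 TPM (SD, n = 3) to 97.3 ± 1.15 TPM, with a log2 fold change of -0.53 (SE 0.03, adjusted p = 1.4e-05). GARS1, the glycyl enzyme of both compartments at chr7:30594681-30634033, went from 217 ± 3.99 to 126 ± 1.38 TPM, with a log2 fold change of -0.52 (SE 0.03, adjusted p = 8.3e-06). The spread between libraries was small beside both differences. CARS1, the cysteinyl enzyme, fell by 0.39 on the log2 scale, and IARS1, the isoleucyl enzyme, fell by 0.34.

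The other 4 lower genes changed less. LARS1, the leucyl enzyme that also takes part in leucine sensing, fell by 0.22, and SARS1, the seryl enzyme, fell by 0.14. MARS1, the methionyl enzyme, went from 248 ± 13.6 to 184 ± 11.9 TPM with a log2 fold change of -0.18 (adjusted p = 0.0324). NARS1, the asparaginyl enzyme, had a log2 fold change of -0.08 (95% CI -0.15 to -0.01, adjusted p = 0.0474). The calls of MARS1 and NARS1 were lost when single libraries were left out. MARS1 also shares 355 exon bases, 5.05% of its own, with DDIT3 on the opposite strand, and DDIT3 went from 341 ± 12.5 to 27.4 ± 1.07 TPM. The library kit does not mark strand, so reads over those bases cannot be assigned to either gene, and their part in the MARS1 value was not tested.

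Among the cytosolic genes that rose, VARS1, the valyl enzyme at chr6:31777518-31795953, measured 98.9, 94.1 and 95.3 TPM under shCtrl against 170, 164 and 166 TPM under KD. The log2 fold change of 1.04 (SE 0.03, adjusted p = 1.1e-06) was the largest of the 35. KARS1, the lysyl enzyme of both compartments at chr16:75627474-75648643, measured 139, 133 and 127 TPM under shCtrl against 195, 194 and 199 TPM under KD, with a log2 fold change of 0.81 (SE 0.03, adjusted p = 3.1e-06). Both genes were higher in each KD library than in any shCtrl library. The enzymes that serve both compartments, GARS1 and KARS1, thus moved in opposite directions.

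FARSA and FARSB code for the catalytic and the partner subunit of the cytosolic phenylalanyl enzyme, which is a tetramer with equal numbers of each. FARSA, at chr19:12922479-12934037, measured 111, 105 and 108 TPM under shCtrl against 170, 166 and 171 TPM under KD, a log2 fold change of 0.89 (SE 0.03, adjusted p = 1.8e-06). FARSB measured 44.7, 41.9 and 39.2 TPM under shCtrl against 44.4, 41.5 and 44.3 TPM under KD. These FARSB values overlapped, and its log2 fold change of 0.29 after scaling (adjusted p = 0.0025) was 0.05 in the deposited TPM (adjusted p = 0.503). The ratio of FARSA to FARSB, which does not depend on scaling, was 2.49, 2.52 and 2.75 in shCtrl and 3.83, 4.001 and 3.87 in KD. The 2 subunit mRNAs were therefore less even in every KD library than in any shCtrl library.

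The remaining 3 genes that rose were EPRS1, QARS1 and HARS1. EPRS1, a single protein that charges both the glutamyl and the prolyl tRNA, went from 72.1 ± 6.14 to 88.4 ± 5.37 TPM with a log2 fold change of 0.54 (SE 0.06). QARS1, the glutaminyl enzyme, rose by a log2 of 0.45, and HARS1, the histidyl enzyme, by 0.42. RARS1, the arginyl enzyme, had a log2 fold change of 0.16 (95% CI -0.01 to 0.33, adjusted p = 0.0933) and TARS1, the threonyl enzyme, of 0.21 (95% CI 0.02 to 0.41, adjusted p = 0.0667). YARS1, the tyrosyl enzyme, had a log2 fold change of 0.01 (95% CI -0.07 to 0.08) with libraries that overlapped after scaling.

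The 7 members that belong to the multisynthetase complex did not move as 1 unit. IARS1, LARS1 and MARS1 fell, EPRS1, KARS1 and QARS1 rose, and RARS1 did not pass. Of the 12 cytosolic genes outside the complex, 6 were lower and 4 higher, beside 25.8% and 28.7% of all genes tested. Of the complex's non-catalytic scaffold proteins, AIMP2 rose from 34.4 ± 1.198 to 43.6 ± 0.28 TPM (log2 fold change 0.58), and AIMP1 had a log2 fold change of 0.30 after scaling and 0.05 in the deposited TPM. EEF1E1, the third scaffold protein, named after its values were seen, did not pass (0.18, adjusted p = 0.13, and -0.06 in the deposited TPM).

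**Figure D1:**
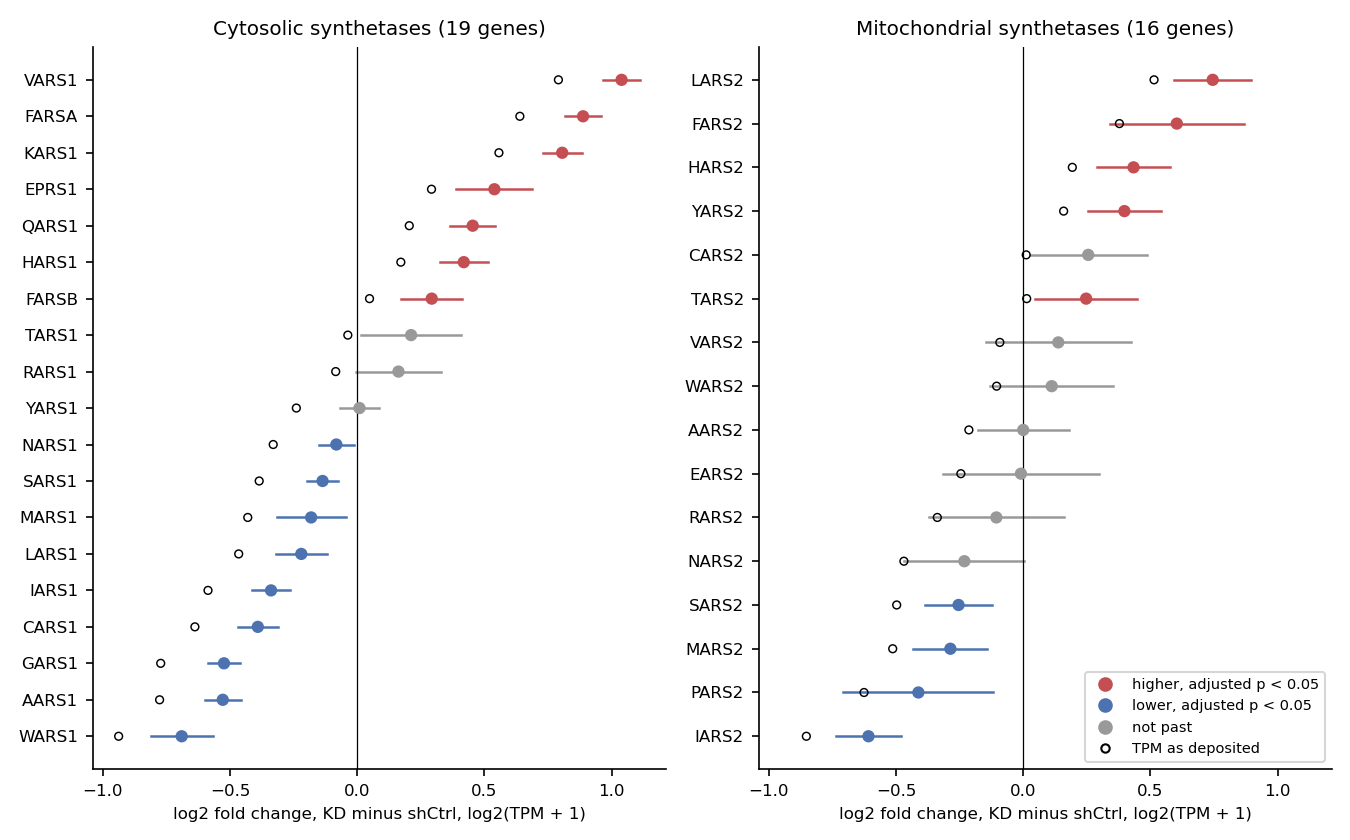
Log2 fold change (KD minus shCtrl, log2(TPM + 1) scale) of each synthetase gene, with filled points and bars for the value and 95% confidence interval after scaling, coloured by call, and open circles for the deposited TPM without scaling. Both sets ran from negative to positive values, from -0.69 (WARS1) to 1.04 (VARS1) among the cytosolic genes and from -0.61 (IARS2) to 0.75 (LARS2) among the mitochondrial ones, and the open circles lay to the left of the filled points.

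Of the mitochondrial genes, IARS2, the isoleucyl enzyme at chr1:220094102-220148041, measured 58.5, 57.6 and 52.3 TPM under shCtrl against 29.1, 31.6 and 31.2 TPM under KD. The highest-expressed mitochondrial synthetase of shCtrl cells thus also fell most, with a log2 fold change of -0.61 (SE 0.05, adjusted p = 0.000108). SARS2, the seryl enzyme, fell by 0.25 and MARS2, the methionyl enzyme, fell by 0.29. PARS2, the prolyl enzyme, fell by 0.41 (adjusted p = 0.0273) from 7.63 ± 0.44 to 4.63 ± 0.80 TPM, a call that was lost when any 1 of 4 libraries was left out. SARS2 shares 46.2% of its exon bases with AC011455.2 on the same strand, which was listed at 0 in all 6 libraries, and 10.8% with MRPS12 on the opposite strand. The part of these shared bases in the SARS2 value was not tested.

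LARS2, the leucyl enzyme at chr3:45388506-45549421, measured 9.59, 9.71 and 10.4 TPM under shCtrl against 14.1, 14.6 and 15.1 TPM under KD. FARS2, the phenylalanyl enzyme at chr6:5261044-5829192, measured 7.77, 8.80 and 7.54 TPM under shCtrl against 11.4, 11.8 and 9.17 TPM under KD. Neither gene overlapped between the groups, although the lowest KD library of FARS2 came close to the highest shCtrl library. The log2 fold changes were 0.75 (SE 0.06, adjusted p = 8.5e-05) for LARS2 and 0.60 (SE 0.11, adjusted p = 0.0034) for FARS2. HARS2, the histidyl enzyme, rose by a log2 of 0.43 and YARS2, the tyrosyl enzyme, by 0.40, the latter not past the threshold in the deposited TPM (0.16, adjusted p = 0.0686). For TARS2, the threonyl enzyme, the log2 fold change was 0.25 (adjusted p = 0.0438). Its deposited TPM overlapped between the groups, with a value of 0.01 there (adjusted p = 0.892), and its call held in only 4 of 15 settings.

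The 7 mitochondrial genes that did not pass were AARS2 (log2 fold change 0.00), CARS2 (0.26), EARS2 (-0.01), NARS2 (-0.23), RARS2 (-0.11), VARS2 (0.14) and WARS2 (0.11). All but AARS2 had confidence intervals wider than that of any cytosolic gene. That of EARS2, for example, ran from -0.32 to 0.30, so a change of that size in either direction was not detectable with these libraries. VARS2 shares 22.0% of its exon bases with GTF2H4 on the same strand. In the deposited TPM, NARS2 and RARS2 passed as lower.

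Over each set, the median log2 fold change was 0.01 for the cytosolic and 0.06 for the mitochondrial genes (-0.24 and -0.16 in the deposited TPM), beside 0.00 for all genes tested. The median absolute log2 fold change was 0.39 for the cytosolic and 0.25 for the mitochondrial genes, beside 0.33 for all genes. The SD of the log2 fold changes was 0.51 and 0.38, beside 0.57. Both measures were larger for the cytosolic than for the mitochondrial genes. Against all genes the cytosolic set had the smaller SD and, on this scale, the larger median absolute change, with no test between the sets. Genes in the level range of the cytosolic set had a median absolute change of 0.36. With a pseudocount of 0.1 the median absolute change over all genes was 0.42. CARS1, the middle cytosolic gene by size of change, was then at -0.40, so the order of these medians depends on the pseudocount.

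Summed over genes in the deposited TPM, the cytosolic synthetases took 2596 ± 58.5 TPM in shCtrl and 2349 ± 33.9 TPM in KD. The mitochondrial ones took 310 ± 4.98 and 264 ± 7.85 TPM. These log2 changes of -0.14 and -0.23 were smaller in size than the log2 difference of -0.25 between the scaling factors of the groups. The sums therefore do not show that either set fell relative to all genes. The ratio of the sums was 8.49, 8.27 and 8.35 in the shCtrl libraries and 9.03, 8.47 and 9.22 in the KD libraries. These ratios overlapped between the groups and do not depend on the scaling. The 9 cytosolic genes that fell summed to 1458 ± 27.4 TPM in shCtrl and 977 ± 20.5 TPM in KD, and the 7 that rose to 781 ± 19.1 and 1042 ± 21.8 TPM, sums whose direction follows from how the genes were sorted. The 7 genes that rose thus outweighed the 9 that fell in KD cells only.

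Enzymes for the same amino acid were then set against each other in 16 pairs, 1 cytosolic and 1 mitochondrial gene each, by their ratio within a library. By group means, the ratio was lower in KD for 7 pairs and higher for 9, with EPRS1 counted in both the EARS2 and the PARS2 pair. The libraries overlapped between the groups for histidine (log2 change -0.03), threonine (-0.05), methionine (0.13), asparagine (0.16) and phenylalanine (0.23). LARS1 over LARS2 went from 7.56, 6.93 and 6.65 in shCtrl to 3.55, 3.32 and 3.46 in KD, a log2 change of -1.03, since LARS1 fell and LARS2 rose. EPRS1 over PARS2 went from 10.0, 10.0 and 8.35 to 19.7, 15.1 and 24.05, a log2 change of 1.03. These were the only 2 of 7 pairs with both genes past the threshold whose genes moved in opposite directions. In the other 5, for histidine, isoleucine, methionine, serine and phenylalanine, both moved the same way. These counts depend on the setting. The calls of PARS2 and MARS1 each held in 10 of 15 settings, and NARS1 and NARS2 both passed as lower in the deposited TPM. WARS1 over WARS2 (log2 change -0.83), CARS1 over CARS2 (-0.66) and AARS1 over AARS2 (-0.53) were lower with the cytosolic gene alone past the threshold. VARS1 over VARS2 (0.90) and EPRS1 over EARS2 (0.56) were higher, also with the cytosolic gene alone past it. With 3 against 3 libraries no exact permutation test of a single ratio can pass 0.05, and none was made.

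The promoters of the synthetase genes were read for the letters TGATGNAA on either strand, which C/EBP-ATF response elements can hold, from 250 bases before to 50 bases after each RefSeq start (GRCh38.p14). An entry was found for 30 of the 35 genes and not for LARS1, VARS1, YARS1, AARS2 and VARS2. The motif was present in 8 of the 30, in 7 of 16 cytosolic and 1 of 14 mitochondrial promoters, beside 3.62% of all 35116 promoters of that length. Counted per gene with any listed start, as the members were, it was in 4.46% of 27305 symbols. For genes with a value that was tested, the share was 2.73%. The 8 windows of 30 bases are shown, 5′ to 3′ on the strand that reads the motif, which is in capitals.
AARS1: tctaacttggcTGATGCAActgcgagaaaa
CARS1: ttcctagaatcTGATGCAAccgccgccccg
GARS1: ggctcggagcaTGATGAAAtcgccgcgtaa
IARS1: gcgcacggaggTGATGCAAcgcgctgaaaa
MARS1: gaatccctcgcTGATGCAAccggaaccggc
NARS1: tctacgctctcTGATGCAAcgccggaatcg
TARS1: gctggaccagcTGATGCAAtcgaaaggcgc
YARS2: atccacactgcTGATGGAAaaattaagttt

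These windows lie at chr16:70289675-70289704 (AARS1), chr11:3057407-3057436 (CARS1), chr9:92293692-92293721 (IARS1) and chr5:33440956-33440985 (TARS1) in GRCh38.p14, and the first 3 are printed from the plus strand. The TARS1 window and those of GARS1 at chr7:30594834-30594863, MARS1 at chr12:57488053-57488082, NARS1 at chr18:57621804-57621833 and YARS2 at chr12:32756076-32756105 are printed from the minus strand. In CARS1, MARS1, IARS1, TARS1, NARS1 and GARS1 the motif lay within 26 bases of a listed start, while in AARS1 it lay 180 bases and in YARS2 190 bases upstream. GARS1, CARS1 and TARS1 have 2 listed starts, and the position is relative to the one whose promoter holds the motif. The exact form TGATGCAA occurred in 6 of the 30 members, in 0.866% of all promoters and, per gene with any listed start, in 1.08% of all symbols.

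By direction, the motif was in 6 of the 8 cytosolic genes that fell and had an entry, and in 0 of the 6 that rose and had one. The lower genes with the motif were AARS1, CARS1, GARS1, IARS1, MARS1 and NARS1, and SARS1 and WARS1 fell without it. Of these calls, that of MARS1 held in 10 and that of NARS1 in 8 of 15 settings. TARS1 had the motif and did not pass, and the mitochondrial YARS2 had it and rose. Over all genes tested with an entry, the motif was in 3.79% of the lower, 1.96% of the higher and 2.59% of the other genes. Letters in a window are a description and do not show that a factor binds there.

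Genes of the integrated stress response were read from a list of 17, of which 16 were tested. In KD cells 12 were lower and 3 were higher, beside 25.8% of all genes tested lower and 28.7% higher. The counts were the same in the deposited TPM, where 40.3% of all genes were lower and 16.3% higher. ATF4 measured 747, 740 and 726 TPM under shCtrl against 387, 386 and 398 TPM under KD, a log2 fold change of -0.67 (SE 0.02, adjusted p = 1.2e-06). ASNS, which makes asparagine and is a well-known ATF4 target, went from 254 ± 11.7 to 75.6 ± 5.94 TPM, a larger change than that of any synthetase. Its log2 fold change was -1.49, against -0.08 for NARS1, the enzyme that charges the same amino acid. The 3 genes that rose were the eIF2 alpha kinase genes EIF2AK2, EIF2AK3 and EIF2AK4, and EIF2AK1 fell (log2 fold change -0.38). The other 9 lower genes, DDIT3, ATF3, CEBPB, CEBPG, TRIB3, CHAC1, SESN2, DDIT4 and PPP1R15A, ranged from -0.95 (CEBPG) to -3.34 (DDIT3). Earlier results of these data on part of this list were known, so the count is not independent evidence.

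Of 13 other genes of tRNA charging, 7 rose and 2 fell, beside 28.7% of all genes tested higher and 25.8% lower. In the deposited TPM 4 rose and 4 fell, beside 16.3% of all genes higher and 40.3% lower. QRSL1 and GATB, subunits of the amidotransferase that turns glutamyl-tRNA into glutaminyl-tRNA in mitochondria, rose by a log2 of 0.62 and 0.45, while EARS2, which makes its substrate, was at -0.01. GATC, the remaining subunit, had a log2 fold change of 0.34 after scaling and 0.11 in the deposited TPM, where it did not pass, and DTD1, which removes D-amino acids from tRNA, had 0.28 and 0.05. AARSD1, which removes serine wrongly joined to alanine tRNA, rose from 60.8 ± 2.205 to 95.6 ± 2.59 TPM (log2 fold change 0.89), where AARS1 fell. XPOT, the exporter of tRNA from the nucleus, fell from 52.7 ± 1.44 to 31.0 ± 2.01 TPM (log2 fold change -0.51), and SEPSECS, which makes selenocysteinyl-tRNA, fell by 0.39.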

How the data were processed

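The authors made poly-A libraries with a TruSeq RNA kit, sequenced pairs of reads and named Cufflinks, RSEM and, for their own comparison, DESeq2. Per the labels, Trimmomatic 0.27 and TopHat2 2.1.1 were used with build GRCh38.p13, and the annotation release is not given in the sources used here. The authors deposited TPM per Ensembl gene. Read totals cannot be had from TPM, so depth and counting error are unknown and no counting interval is given. A value was read for 60662 genes in each of the 6 libraries, no pair of which was identical. The lines of 2 genes are broken and were left out. Positions and overlaps came from GENCODE v29, also GRCh38, where 58394 identifiers and all 35 members were found. RefSeq promoters were matched by symbol.

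TPM were scaled by trimmed means of M-values computed on TPM (30% of log ratios and 5% of mean values trimmed, without weights). The factors were first computed on all genes and then, after the fold changes had been seen, on the genes tested, to follow an earlier treatment of these data. The 16901 genes that reached 0.5 TPM in 3 or more libraries were fitted as log2(TPM + 1) in R 4.3.3 with limma 3.58.1, using a trend of variance on mean level, no replicate block and Benjamini-Hochberg adjustment over all of them. A call means an adjusted p under 0.05. The plus 1 understates the change of low genes. In a simulated set of 16602 genes with 200 changed 2-fold, 179 of these and 12 unchanged genes were called. Recovery below 2-fold, where all members but VARS1 lay after scaling, was not tested. A set with as large a share of changed genes as was called here was not tested either. The members, gene lists and tests were chosen with earlier results of these data known. All 35 members are named, with every library's value for those past 1.5-fold, FARSB and the ratios besides. From the 2 lists of related genes, ATF4 and the genes past the threshold are named, with EEF1E1 besides. Of the charging list as first written, 2 genes are not reported here. Alternatives were other scalings, pseudocount, filter, no trend, a replicate block and leaving out each library. Figures were drawn with matplotlib 3.10.9 in Python 3.11.15.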

Additional observations from a re-analysis of the deposited data

How the results depend on the processing

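The counts and medians of both sets were recomputed under 3 other scalings, a pseudocount of 0.1, no filter, a filter of 1 TPM, no variance trend, a replicate block and without each library in turn. At 2-fold or more, 0 cytosolic and 0 mitochondrial genes were lower, and 1 cytosolic and 0 mitochondrial were higher. In the deposited TPM, 3 mitochondrial genes were higher in place of 5, the cytosolic median was -0.24 and the mitochondrial median -0.16, and YARS1 turned from 0.01 to -0.24. With upper-quartile scaling the medians were -0.084 and -0.024. Without single libraries the cytosolic median ranged from -0.026 (without shCtrl replicate 3) to 0.028 and the mitochondrial one from 0.0070 to 0.11. Same-numbered libraries of the 2 groups did not deviate together (r of 0.03, -0.04 and 0.01), so the replicate block was an alternative only. With it, 8 cytosolic genes were lower and 8 higher, and 4 mitochondrial genes were lower and 4 higher, with NARS1 (adjusted p = 0.0794) and TARS2 (0.0626) not past and TARS1 (0.0136) past the threshold. GMDS-AS1 was at an adjusted p of 0.0523 with the block and 0.133 with no filter. Calls that rested on single libraries were MARS1 (adjusted p = 0.0660 without shCtrl replicate 2, 0.0725 and 0.0539 without KD replicates 1 and 3), NARS1 (0.0719 without shCtrl replicate 3 and 0.155, 0.0891 and 0.0818 without KD replicates 1, 2 and 3), PARS2 (0.0637 and 0.0702 without shCtrl replicates 2 and 3, 0.0670 and 0.0635 without KD replicates 1 and 3) and TARS2 (0.152, 0.102 and 0.0661 without shCtrl replicates 1, 2 and 3, 0.0780 and 0.108 without KD replicates 1 and 2). TARS1 passed without KD replicate 3 (0.0450), CARS2 without shCtrl replicate 3 (0.0290) or KD replicate 3 (0.0414), and NARS2 without KD replicate 2 (0.0144). In all, 19 of the 25 calls held in each of the 15 settings. The cause of these changes was not tested, beyond the smaller number of libraries.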

Other observations

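By structural family, the 18 class I synthetases held 7 lower and 4 higher genes and the 16 class II synthetases 6 lower and 7 higher, with EPRS1, which has a domain of each, counted in neither. Within the cytosolic set, 5 of 9 class I genes fell and 2 rose, and 4 of 9 class II genes fell and 4 rose. Beside these counts, 25.8% of all genes tested were lower and 28.7% higher, and no test between the classes was made. Close pairs of neighbouring synthetase genes differed in whether they moved the same way. EPRS1 and IARS2 lie 47443 bases apart on chromosome 1 on opposite strands, and EPRS1 rose (log2 fold change 0.54) while IARS2 fell (-0.61). HARS1 and HARS2 lie head to head on chromosome 5, share 437 exon bases, 11.7% of those of HARS2, and rose by nearly the same log2 of 0.42 and 0.43. Reads over the shared bases cannot be assigned without strand, and their part was not tested. The ratio of HARS1 to HARS2 was 3.59, 3.26 and 3.74 in shCtrl and 3.69, 3.56 and 3.15 in KD, which overlapped.

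The 5 synthetase genes on chromosome 6, where GMDS-AS1 is coded, were VARS1, FARS2, AARS2, RARS2 and VARS2. FARS2, the nearest at 2.78 Mb, and VARS1, at 29.3 Mb, rose, and the other 3 did not pass the threshold. Beside this count, 28.7% of all genes tested were higher and 25.8% lower.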
